A study of Tachysurus vachellii and Tachysurus fulvidraco x Tachysurus vachelli and Tachysurus fulvidraco with 9 samples.

Results

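CD163 is a scavenger receptor of the cell surface, and its transcript was followed here in the liver of juvenile catfish. The gene was taken as every assembled gene (called a row) of the deposited table whose name is CD163, without regard to case, which gave 2 of 57710 rows. The more abundant row (TRINITY_DN27799_c2_g1) is called row 1, and the other (TRINITY_DN21614_c1_g3) row 2. Both are described in the table as M130-like proteins after the channel catfish Ictalurus punctatus, M130 being another name of CD163. Their identity rests on name and description alone, and whether either is the counterpart of mammalian CD163 was not tested. CD163 was chosen by the difference of row 1 between the parental species, so its parental levels are a description and carry no test. The 9 libraries of poly(A) RNA fell into 3 groups of 3. They were the hybrid yellow catfish Huangyou-1 (PP), a cross of female P. fulvidraco with male P. vachelli, and the pure-bred P. vachelli (PV) and P. fulvidraco (PF). All eggs were kept at 28 °C, and each line was then reared as 600 fish in 3 aquaria of its own, so line and rearing cannot be told apart. Whether each library was made from 1 fish or from pooled fish is not in the labels, so the spread behind the p-values is that between libraries and could be technical.

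In mammals, CD163 sits on macrophages, among them the Kupffer cells of the liver, and takes up hemoglobin that is bound to haptoglobin. The heme is then opened by heme oxygenases, and its iron is stored in ferritin or exported by ferroportin. The outer part of the receptor is built of scavenger receptor cysteine-rich (SRCR) domains, a building block shared by a large family of immune proteins. ADAM17 can shed it from the cell, and glucocorticoids and interleukin-10 raise its expression in human monocytes.

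Levels are in TPM, a transcript's share of its library with its length allowed for. TPM hold no read number, and sequencing depth is therefore unknown. The number of rows with at least 1 TPM ran from 36107 to 41016 per library. The fibrinogen genes FGA, FGB and FGG, which define hepatocytes, averaged at least 3458 TPM in each group. Vitellogenin, the egg yolk protein, took at most 0.000129% of the TPM of any hybrid or P. vachelli library, and 5.08%, 1.88% and 0.00549% in P. fulvidraco 1, 2 and 3. Levels are given with their SD (n = 3 libraries of a group), and differences with their standard error, both after ±. Differences come from limma on log2(TPM + 1), a scale that makes the changes of scarce genes look smaller. A gene was called where the Benjamini-Hochberg adjusted p was below 0.05.

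CD163 was abundant in hybrid liver and in P. fulvidraco and scarce in P. vachelli. Row 1 stood at 567, 372 and 562 TPM in hybrid 1, 2 and 3, with 3.18, 4.94 and 6.08 TPM for P. vachelli 1, 2 and 3 and 763, 873 and 872 TPM for P. fulvidraco 1, 2 and 3. The groups did not overlap: every hybrid library lay above every P. vachelli library and below every P. fulvidraco library, and hybrid 2 was the lowest of its group. Row 2 was scarce, at 0.930, 1.73 and 0 TPM in hybrid liver, 1.69, 0 and 0 TPM in P. vachelli liver and 1.84, 0.890 and 0 TPM in P. fulvidraco. Its groups overlapped fully, and 5 of the 9 libraries had a value above 0. The sum of both rows averaged 501 ± 111 TPM in hybrid liver, 5.30 ± 0.679 TPM in P. vachelli liver and 837 ± 62.4 TPM in P. fulvidraco. Row 1 made up at least 99.5% of that sum in every hybrid and P. fulvidraco library, and 65.3% in P. vachelli 1, where row 2 had its single value for that species. By the sum, CD163 ranked between 174 and 225 among the 11137 symbols in the hybrid libraries, between 5281 and 6128 in P. vachelli and between 133 and 144 in P. fulvidraco.

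**Figure D1:**
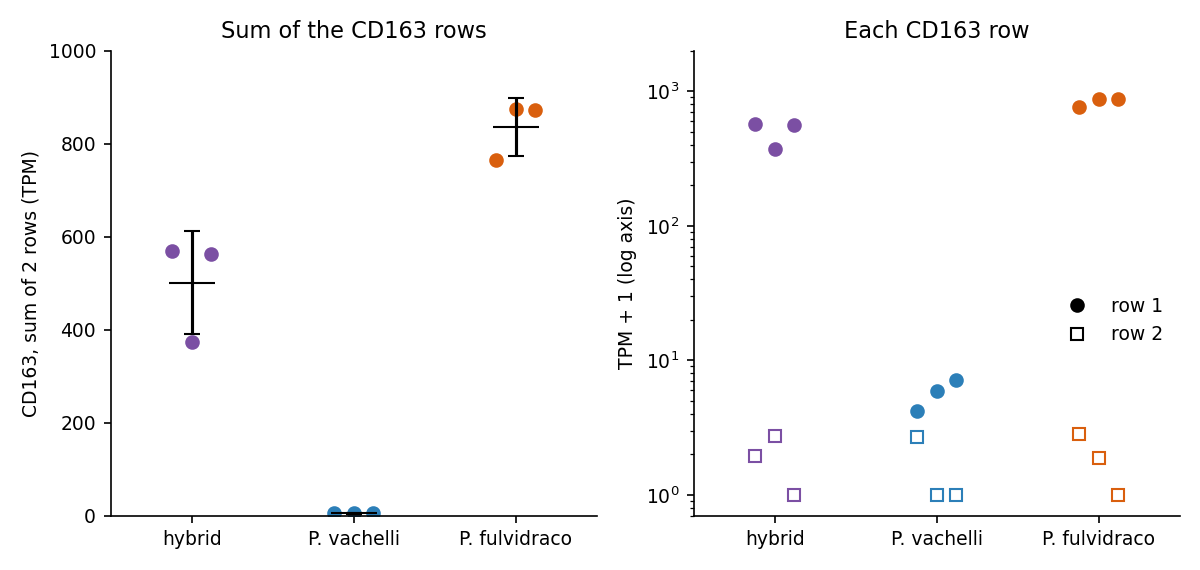
CD163 in each of the 9 libraries, by group on the horizontal axis. Left, the sum of the 2 rows in TPM on a linear axis, with the mean and the SD over 3 libraries in black: the hybrid (373.77 to 568 TPM) lies between P. vachelli (4.87 to 6.08 TPM) and P. fulvidraco (765 to 874 TPM). Right, TPM + 1 of each row on a log axis: row 1 (filled circles) carries the difference, and row 2 (open squares) is at or below 1.84 TPM in every library.

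Summing the rows did not bring the parents together. P. vachelli held 0.566% of the P. fulvidraco mean in row 1 and 0.633% in the sum, and the log2 difference of the sum was -7.06 ± 0.16, against -7.22 ± 0.22 for row 1 alone. No row named CD163 was higher in P. vachelli.

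The hybrid was set against each parent, whose libraries are those that chose the gene. Against P. vachelli, the CD163 sum was 94.7-fold higher on the linear scale, with a log2 difference of 6.30 ± 0.16 (limma, adjusted p = 7.79e-08, higher in 3 of 3 hybrid libraries). Over all symbols tested, 13.7% were called higher and 16.9% lower in this comparison. Against P. fulvidraco, the hybrid held 59.9% of the mean, with a log2 difference of -0.76 ± 0.16 (limma, adjusted p = 0.0105, lower in 3 of 3 hybrid libraries), where 10.6% of symbols were called higher and 14.1% lower. The call against P. fulvidraco was lost without both vitellogenin-rich libraries, P. fulvidraco 1 and 2, although the difference was no smaller (-0.82). This leaves 1 P. fulvidraco library, and the cause of the loss was not tested. Row 1 by itself differed by 6.46 ± 0.22 from P. vachelli (limma, adjusted p = 2.62e-07) and by -0.76 ± 0.22 from P. fulvidraco (limma, adjusted p = 0.0376). In these comparisons 30.0% and 21.8% of all rows were called in either direction. The call of row 1 against P. fulvidraco rested on every P. fulvidraco library and on hybrid 2 and P. vachelli 2, without which the adjusted p of limma lay between 0.0545 and 0.106. Row 2 was called in no comparison with a parent (limma, adjusted p = 0.688 against P. vachelli and 0.997 against P. fulvidraco).

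Whether the hybrid exceeded the middle of its parents turned on the scale. The mean of the parental levels was 421 TPM, and the hybrid mean stood at 1.19 times that value. Hybrid 1 and 3 were above 421 TPM and hybrid 2, at 374 TPM, below it. For the test, each group was taken at its mean of log2(TPM + 1), and the parental means were turned back to TPM before averaging. The log2 difference found in this way was 0.23, set against a standard error of 0.14 that was lent by the comparison on the log scale. It was not called (t test with that limma error, adjusted p = 0.334). Against the mean of the parental log2 levels, which a parent near 0 pulls down, the hybrid was called higher by 2.77 ± 0.14 (limma, adjusted p = 3.05e-05), with 4.61% of symbols called higher and 6.20% lower in that comparison.

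The table was searched for further rows of the same protein, since an assembly can place the forms of 2 species in separate rows, or under other names. Trinity, the assembler, puts contigs that share sequence into a cluster, and row 1 has 3 neighbours in its cluster. A neighbour named DMBT1, after another SRCR protein, is also described as M130-like. It stood at 337, 274 and 327 TPM in hybrid 1, 2 and 3, with 10.4, 3.37 and 9.85 TPM for P. vachelli 1, 2 and 3 and 471, 429 and 451 TPM for P. fulvidraco 1, 2 and 3. It thus had the same order of groups as row 1 with no overlap, and hybrid 2 was again the lowest hybrid library. Its log2 difference was 5.26 ± 0.32 between the hybrid and P. vachelli (limma, adjusted p = 1.04e-05) and -0.53 ± 0.32 between the hybrid and P. fulvidraco, which was not called (limma, adjusted p = 0.272). It was called lower in P. vachelli than in P. fulvidraco (-5.79 ± 0.32, limma adjusted p = 1.78e-06), among 54.4% of all rows called in either direction. How reads were shared between the 2 rows is not given in the sources used here. Row 1 was chosen for its parental difference, and this neighbour was found through row 1. Its call between the parents therefore cannot be taken as independent of that choice, and nothing is drawn from it. The shared order of groups and the low hybrid 2 likewise cannot be taken as a second observation of CD163.

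The ratio of row 1 to that neighbour was 1.69, 1.36 and 1.72 in hybrid 1, 2 and 3, 0.307, 1.47 and 0.617 in P. vachelli 1, 2 and 3, and 1.62, 2.04 and 1.93 in P. fulvidraco 1, 2 and 3. The hybrid overlapped with each parent, and the parents did not overlap, with every P. vachelli ratio below every P. fulvidraco ratio. Row 1 was chosen for its parental difference, so a low ratio in P. vachelli can follow from that choice, and nothing is drawn from it. The P. vachelli ratios also rest on at most 10.4 TPM in either row and varied widely. Together both rows reached 813 ± 145 TPM in hybrid liver, 12.6 ± 3.90 TPM in P. vachelli liver and 1286 ± 46.6 TPM in P. fulvidraco. With this neighbour added to the CD163 sum, the hybrid differed from P. vachelli by 5.88 ± 0.22 (limma, adjusted p = 6.09e-07), and its difference from P. fulvidraco was -0.68 ± 0.22 and no longer called (limma, adjusted p = 0.0541). The other 2 neighbours have no description and were listed at 0 in all P. vachelli libraries. The first averaged 2.29 ± 1.05 TPM in hybrid liver and 2.58 ± 1.58 TPM in P. fulvidraco, and the second 4.70 ± 2.08 TPM in hybrid liver and 0.500 ± 0.433 TPM in P. fulvidraco.

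The cluster of row 2 holds 8 rows, of which 1 other was described as an SRCR protein. It also holds SLC25A11, described as a mitochondrial carrier, so a place in this cluster does not by itself show a related protein. The SRCR row, named SSC5D and described as like the T cell antigen CD6, stood at 107, 91.9 and 1.99 TPM in hybrid 1, 2 and 3, with 0.750, 0 and 0 TPM for P. vachelli 1, 2 and 3 and 99.2, 33.1 and 41.1 TPM for P. fulvidraco 1, 2 and 3. Hybrid 3 stood far below the other hybrid libraries, and hybrid and P. fulvidraco overlapped. The row was called higher in hybrid liver than in P. vachelli (limma, adjusted p = 0.0199) and lower in P. vachelli than in P. fulvidraco (limma, adjusted p = 0.00517). As a symbol, SSC5D was no longer called between hybrid and P. vachelli without hybrid 1, hybrid 2, P. vachelli 2 or P. vachelli 3.

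**Figure D2:**
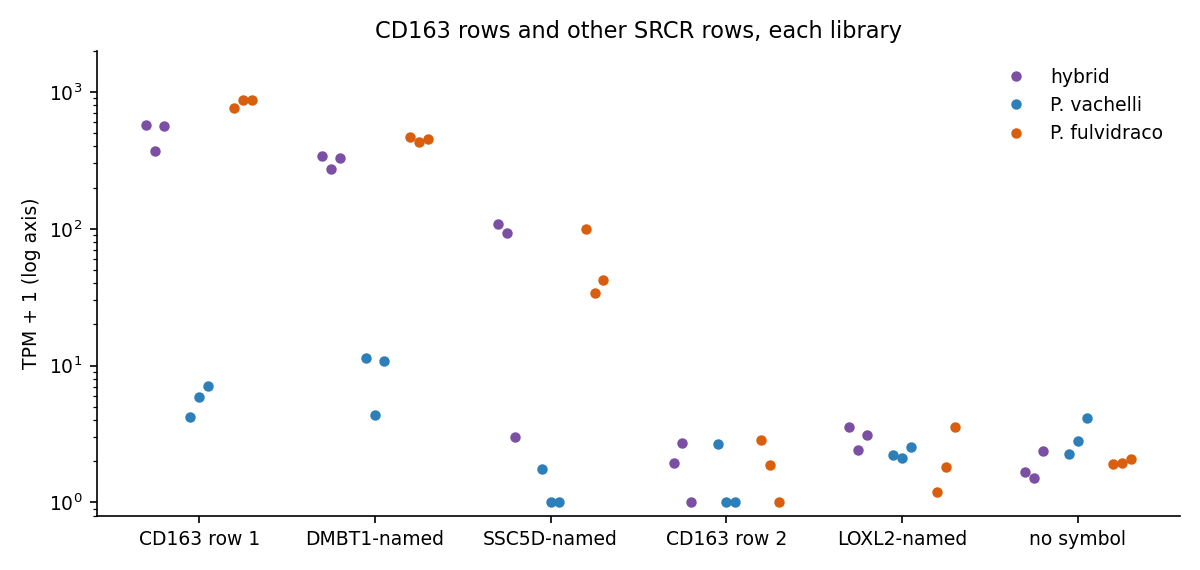
TPM + 1 on a log axis for the 2 CD163 rows, the SRCR rows of their clusters (DMBT1-named and SSC5D-named) and the remaining rows described as M130-like (LOXL2-named and a row with no symbol). Each point is a library, with hybrid, P. vachelli and P. fulvidraco side by side: row 1, the DMBT1-named and the SSC5D-named row are low in P. vachelli, and no row shown is above 10.4 TPM in that species.

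By description, 12 further rows held the words scavenger receptor, M130 or SRCR, 3 of them M130-like, and 9 were tested. SRCR proteins described in other words are missed, such as the SSC5D-named row of the row 2 cluster, described as CD6-like. Apart from the neighbour of row 1, none of the 12 was above 20.2 TPM in any library or above 16.6 TPM in P. vachelli. Of these 9, 5 reached 1 TPM in 3 libraries only through P. vachelli, so that their being higher there was bound to the filter. Calls with P. vachelli are therefore not read from the 9 rows, and those of the neighbour of row 1 are given above with their limit. Against P. fulvidraco, 0 of the 9 were called in the hybrid (limma, where 1 had an unadjusted p below 0.05), beside 21.8% of all rows called in either direction. The 5 rows were scarce in both hybrid liver and P. fulvidraco, so this count says little. The rows higher in P. vachelli were scarce. The SCARA3 row, a class A scavenger receptor, was listed at 0 in hybrid liver and stood at 3.38, 6.70 and 5.28 TPM in P. vachelli 1, 2 and 3, against 0, 0.690 and 0 TPM in P. fulvidraco 1, 2 and 3. The most abundant row described as SSC5D-like stood at 0, 0 and 0.670 TPM in hybrid 1, 2 and 3, with 5.59, 6.20 and 2.79 TPM for P. vachelli 1, 2 and 3, and was listed at 0 in P. fulvidraco. The remaining M130-like rows, named LOXL2 or without a symbol, averaged 2.02 and 0.840 TPM in hybrid liver, 1.28 and 2.08 TPM in P. vachelli liver and 1.19 and 0.967 TPM in P. fulvidraco. With all M130-like rows added to the CD163 sum, the parents differed by -6.24 ± 0.20 on the log2 scale.

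Rows without a description cannot be searched in this way. In P. vachelli, 78 rows averaged at least 100 TPM and stood under 1% of that level in P. fulvidraco, and 42 of them have no description. Whether a P. vachelli form of CD163 is among them was not tested.

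Row 1 was set among the 93 rows with at least 100 TPM in P. fulvidraco and under 1% of that level in P. vachelli. They were 10.4% of the 892 rows at that level in P. fulvidraco. Row 1 ranked 19 by its level in P. fulvidraco. The hybrid held 59.9% of the P. fulvidraco mean in row 1, against a median of 48.5% over the 93 rows, with quartiles of 39.0% and 60.1%, and 68 of them had a lower share. The 93 include the 4 vitellogenin rows, whose total lay almost wholly in P. fulvidraco 1 and 2. Their hybrid share was at most 0.00352%. They count among the 68, and the most abundant of them stand above row 1 in the rank. The DMBT1-named neighbour stood just outside this group, with 69.4% of its P. fulvidraco level in hybrid liver and 1.75% in P. vachelli. Among the 78 rows found in P. vachelli in the same way, the hybrid held a median of 40.5% of the P. vachelli mean.

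**Figure D3:**
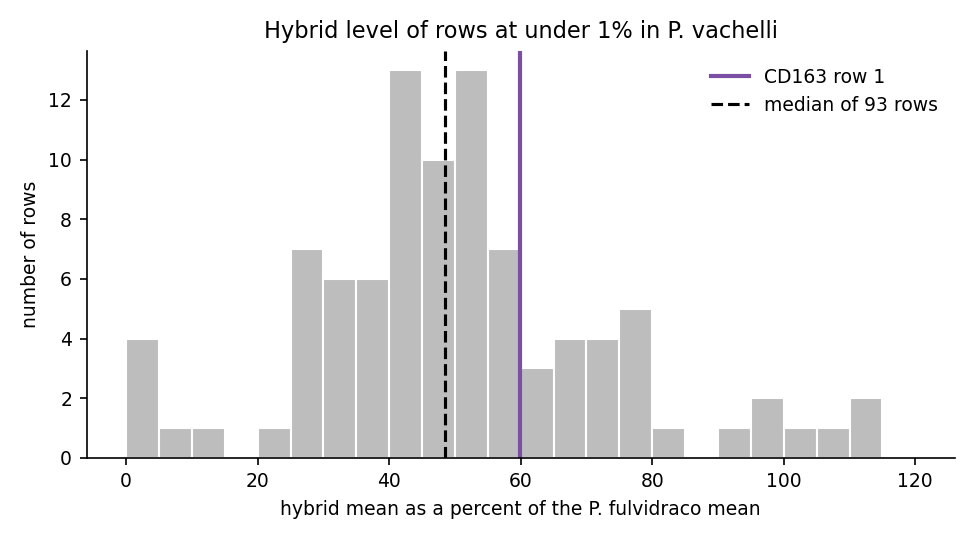
Histogram of the hybrid mean as a percent of the P. fulvidraco mean (horizontal axis) over the 93 rows with at least 100 TPM in P. fulvidraco and under 1% of that in P. vachelli, counted on the vertical axis. The dashed line is their median, 48.5%, and the solid line CD163 row 1, at 59.9%, near the upper quartile of 60.1%. The leftmost bar is the 4 vitellogenin rows.

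The genes around CD163 were then read from 4 lists: hemoglobin scavenging and heme breakdown, macrophage markers, other scavenger receptors, and regulators of CD163. The rows of a symbol were summed. Of 91 members tested, 17 (18.7%) were higher and 13 (14.3%) lower in hybrid liver than in P. vachelli, where 13.7% and 16.9% of all symbols were. Against P. fulvidraco, 17 (18.7%) were higher and 9 (9.89%) lower in hybrid liver, where 10.6% and 14.1% of all symbols were. Between the parents, 24 (26.4%) were higher and 23 (25.3%) lower in P. vachelli, near the 23.9% and 24.7% of all symbols. HBAA1, FLVCR1, CD163L1, SCARA3 and STAB2 entered the test through a single group. Over the other 86 members, 16 were higher and 11 lower than in P. vachelli, 17 higher and 8 lower than in P. fulvidraco, and 22 higher and 21 lower in P. vachelli than in P. fulvidraco. The count lower than P. vachelli was 8 without hybrid 2, P. vachelli 1 or P. vachelli 2. Against P. fulvidraco, the count of higher members was 10 or 11 without hybrid 2, hybrid 3, P. fulvidraco 1 or P. fulvidraco 2. The count of lower members was 4 or 5 without hybrid 1, hybrid 2, P. fulvidraco 2 or P. fulvidraco 3. Leaving out both libraries rich in vitellogenin, P. fulvidraco 1 and 2, leaves 1 P. fulvidraco library. Fewer members were then called against P. fulvidraco. With 1 library the error of a difference rises, so these counts are not read. Some calls of genes with printed levels were lost without both. They were those of HPX and HBA between hybrid and P. fulvidraco, and of HBA and SSC5D between the parents. The calls of NCF1 and STAT3 between hybrid and P. fulvidraco, which are not given below, were lost too.

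Genes that carry hemoglobin and heme or break heme down were called in both directions. Of 18 tested members among 25 sought, 6 were higher and 3 lower in hybrid liver than in P. vachelli, 6 were higher and 2 lower than in P. fulvidraco, and 5 were higher and 7 lower in P. vachelli than in P. fulvidraco. These were 33.3% and 16.7% against P. vachelli, 33.3% and 11.1% against P. fulvidraco, and 27.8% and 38.9% between the parents, beside 13.7% and 16.9%, 10.6% and 14.1%, and 23.9% and 24.7% of all symbols. Of these members, HBAA1 and FLVCR1 entered the test through a single group. Over the other 16, 5 were higher and 3 lower, 6 higher and 2 lower, and 5 higher and 6 lower in these comparisons. The median log2 differences were 0.16, 0.14 and -0.10, against -0.05, -0.05 and -0.01 over all symbols. Haptoglobin HP and HMOX1 were not analysed here. Hemopexin HPX, the plasma carrier of free heme, whose rows the table describes as warm temperature acclimation proteins, stood at 24026 ± 2229 TPM in hybrid liver, 4639 ± 917 TPM in P. vachelli liver and 12628 ± 2699 TPM in P. fulvidraco. It was called higher in hybrid liver than in either parent (2.39 ± 0.17 and 0.95 ± 0.17, limma adjusted p = 3.52e-05 and 0.00539), though not against P. fulvidraco after quantile normalization. Alpha globin HBA, a chain of the hemoglobin that CD163 takes up in mammals, averaged 5810.0 ± 882 TPM in hybrid liver, 5439 ± 1126 TPM in P. vachelli liver and 2822 ± 706 TPM in P. fulvidraco. It was called higher in hybrid liver and in P. vachelli than in P. fulvidraco (1.06 ± 0.20 and 0.96 ± 0.20).

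Genes of the intracellular steps went both ways. Heme oxygenase HMOX2, which opens the heme ring, ran opposite to CD163, with 12.5 ± 1.39 TPM in hybrid liver, 26.8 ± 1.11 TPM in P. vachelli liver and 3.93 ± 0.469 TPM in P. fulvidraco (limma, adjusted p = 6.54e-07 between the parents). NCOA4, the receptor that delivers ferritin to lysosomes, had the same order as HMOX2, at 174 ± 39.5 TPM in hybrid liver, 343 ± 79.3 TPM in P. vachelli liver and 45.6 ± 6.38 TPM in P. fulvidraco. FLVCR2, a membrane transporter related to the heme exporter FLVCR1, was lowest in P. vachelli like CD163, though far less so. It stood at 99.3 ± 20.0 TPM in hybrid liver, 25.8 ± 6.30 TPM in P. vachelli liver and 111 ± 12.7 TPM in P. fulvidraco. It differed by 1.91 ± 0.19 between the hybrid and P. vachelli and by -2.09 ± 0.19 between the parents (limma, adjusted p = 0.000198 and 3.53e-05). BLVRB and SLC11A2 of the same list shared this direction. They were called higher in hybrid liver than in P. vachelli (0.53 and 0.76) and lower in P. vachelli than in P. fulvidraco (-0.52 and -1.22). Ferroportin SLC40A1, the iron exporter, was called in no comparison, at 32.5 ± 5.09 TPM in hybrid liver, 29.2 ± 2.32 TPM in P. vachelli liver and 30.3 ± 4.33 TPM in P. fulvidraco.

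Of the markers of macrophages, the cells that carry CD163 in mammals, none differed as much as CD163 between the parents or between hybrid and P. vachelli. CD163 was chosen for its parental difference, so this was largely set beforehand and nothing is drawn from it. The summed level of the markers was 753 to 976 TPM in hybrid liver, 711 to 802 TPM in P. vachelli liver and 674 to 832 TPM in P. fulvidraco, and the ranges overlapped. Of 29 tested members among 41 sought, 7 were higher and 2 lower in hybrid liver than in P. vachelli, 4 were higher and 0 lower than in P. fulvidraco (limma; 3 were lower at an unadjusted p below 0.05), and 6 were higher and 6 lower in P. vachelli than in P. fulvidraco. Against P. vachelli these were 24.1% and 6.90% of the list, beside 13.7% and 16.9% of all symbols. Against P. fulvidraco they were 13.8% and 0%, beside 10.6% and 14.1%. Between the parents they were 20.7% each way, near or below the 23.9% and 24.7% of all symbols. The median log2 differences were 0.29, 0.33 and -0.06. The growth factor receptor CSF1R stood at 8.35 ± 3.35 TPM in hybrid liver, 5.997 ± 1.69 TPM in P. vachelli liver and 7.53 ± 1.82 TPM in P. fulvidraco, and was called in no comparison. The same held for the transcription factor SPI1 (PU.1) at 10.6 ± 2.34, 9.19 ± 1.24 and 7.52 ± 1.56 TPM in hybrid, P. vachelli and P. fulvidraco, and for the pore-forming MPEG1 at 1.76 ± 0.671, 1.22 ± 0.239 and 1.82 ± 0.538 TPM in the same groups. In TPM, which allow for length, CD163 thus stood above each of these markers in hybrid liver and in P. fulvidraco, while in P. vachelli its mean lay within the spread of CSF1R. In bulk liver, fewer cells of a type and less RNA per cell cannot be told apart.

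Some macrophage genes shared the direction of CD163. The transcription factor IRF8 averaged 4.19 ± 0.845 TPM in hybrid liver, 1.67 ± 0.0802 TPM in P. vachelli liver and 5.90 ± 1.204 TPM in P. fulvidraco (-1.36 ± 0.17 between the parents, limma adjusted p = 0.000170). MERTK, a receptor for dying cells, stood at 3.09 ± 0.639 TPM in hybrid liver, 1.29 ± 0.147 TPM in P. vachelli liver and 3.87 ± 0.708 TPM in P. fulvidraco (-1.08 ± 0.16 between the parents, limma adjusted p = 0.000536). Both were also called higher in hybrid liver than in P. vachelli. So were PTPRC (0.99), MRC1 (1.05), ITGAX (0.99), CYBB (0.65) and MARCO (0.61). The calls of MRC1, ITGAX and MARCO did not hold with every library left out. NCF1 (-0.86) and NR1H3 (-0.72) were the 2 called lower there. PTPRC (-0.51), CYBB (-0.47), ITGAM (-0.91) and SLC37A2 (-1.84) were also called lower in P. vachelli than in P. fulvidraco, while 6 markers were higher. With single libraries left out, PTPRC and CYBB could lose that call. Others ran the opposite way. NCF1, a subunit of the phagocyte oxidase, was at 13.6 ± 1.99 TPM in hybrid liver, 25.3 ± 0.602 TPM in P. vachelli liver and 7.72 ± 1.30 TPM in P. fulvidraco, and CLEC4F, a lectin of Kupffer cells in mice, at 26.3 ± 3.37, 24.1 ± 3.11 and 11.4 ± 2.52 TPM in hybrid, P. vachelli and P. fulvidraco. The call of CLEC4F between the parents was lost when only its most abundant row was taken.

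Among markers of other cells that the liver can hold, the summed levels of hepatocyte genes were 31066 to 32081 TPM in hybrid liver, 32919 to 36704 TPM in P. vachelli liver and 33907 to 39021 TPM in P. fulvidraco. Summed erythrocyte markers were 7150 to 9364 TPM in hybrid liver, 6278 to 9258 TPM in P. vachelli liver and 3601 to 5374 TPM in P. fulvidraco, where they did not overlap with either. Summed endothelial markers were 50.3 to 73.8 TPM in hybrid liver, 76.8 to 91.9 TPM in P. vachelli liver and 53.6 to 75.2 TPM in P. fulvidraco. Lymphocyte markers summed to 21.9 to 38.8 TPM in hybrid liver, 28.4 to 32.9 TPM in P. vachelli liver and 17.7 to 23.8 TPM in P. fulvidraco, and the 2 neutrophil markers measured to 22.1 to 30.6 TPM in hybrid liver, 46.0 to 51.4 TPM in P. vachelli liver and 5.58 to 6.71 TPM in P. fulvidraco. Their part in the CD163 difference was not tested.

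Other scavenger receptors and SRCR proteins were called in both directions. Of 22 tested members among 32 sought, 3 were higher and 6 lower in hybrid liver than in P. vachelli, 4 were higher and 2 lower than in P. fulvidraco, and 8 were higher and 6 lower in P. vachelli than in P. fulvidraco, with median log2 differences of -0.06, 0.15 and 0.18. These were 13.6% and 27.3% against P. vachelli, 18.2% and 9.09% against P. fulvidraco, and 36.4% and 27.3% between the parents, beside 13.7% and 16.9%, 10.6% and 14.1%, and 23.9% and 24.7% of all symbols. Without the 3 members that entered the test through a single group, 3 were higher and 4 lower, 4 higher and 1 lower, and 6 higher and 5 lower in these comparisons, of 19. The stabilin STAB1, a receptor of liver endothelium and macrophages in mammals, was at 3.34 ± 1.40 TPM in hybrid liver, 7.83 ± 2.23 TPM in P. vachelli liver and 2.04 ± 0.369 TPM in P. fulvidraco (1.52 ± 0.25 between the parents, limma adjusted p = 0.00101). LGALS3BPA, a secreted SRCR protein, was at 6.27 ± 1.87 TPM in hybrid liver, 13.7 ± 2.196 TPM in P. vachelli liver and 1.03 ± 0.327 TPM in P. fulvidraco (2.86 ± 0.21, limma adjusted p = 8.48e-06). Both were thus higher in P. vachelli, where CD163 was scarce. Complement factor I, CFI, which carries an SRCR domain and is made by hepatocytes, was lower there, at 1502 ± 220 TPM in hybrid liver, 836 ± 114 TPM in P. vachelli liver and 1395 ± 126 TPM in P. fulvidraco (-0.74 ± 0.13, limma adjusted p = 0.00150). The row named CD163L1 after the close relative M160, which the table describes as CD6-like, averaged 0.390 ± 0.217 TPM in hybrid liver, 0.910 ± 0.318 TPM in P. vachelli liver and 3.00 ± 1.15 TPM in P. fulvidraco. It entered the test only through P. fulvidraco, where it was highest, so no test of it is given.

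Of the regulators and partners of CD163, 1 was higher and 2 lower in hybrid liver than in P. vachelli, 3 were higher and 5 lower than in P. fulvidraco, and 5 were higher and 4 lower in P. vachelli than in P. fulvidraco, of 22 tested among 34 sought. Between the parents these were 22.7% and 18.2%, near or below the 23.9% and 24.7% of all symbols. Against P. vachelli they were 4.55% and 9.09%, beside 13.7% and 16.9%, and against P. fulvidraco 13.6% and 22.7%, beside 10.6% and 14.1%. The median log2 differences were -0.02, 0.00469 and -0.07. The sheddase ADAM17 was called in no comparison, at 6.42 ± 1.31 TPM in hybrid liver, 7.48 ± 0.756 TPM in P. vachelli liver and 5.67 ± 0.320 TPM in P. fulvidraco. The glucocorticoid receptor NR3C1 was likewise not called, at 12.01 ± 0.863, 11.1 ± 0.960 and 11.9 ± 2.27 TPM in hybrid, P. vachelli and P. fulvidraco. FKBP5, a chaperone that glucocorticoids induce in mammals, followed the order of CD163, with 104 ± 27.4 TPM in hybrid liver, 68.2 ± 3.91 TPM in P. vachelli liver and 198 ± 42.3 TPM in P. fulvidraco. It was called lower in hybrid liver than in P. fulvidraco (-0.93 ± 0.20, limma adjusted p = 0.0112) and lower in P. vachelli than in P. fulvidraco (-1.50 ± 0.20, limma adjusted p = 0.000317). Between hybrid liver and P. vachelli, the FKBP5 mean was higher in hybrid liver, the direction of CD163, but FKBP5 was not called. Whether glucocorticoids have a part in the CD163 difference was not tested. The 1 regulator called higher in that comparison was TSC22D3 (0.84), whose call did not hold with every library left out. STAT3, which carries the interleukin-10 signal, had the reverse order, at 4.60 ± 1.08 TPM in hybrid liver, 7.46 ± 0.710 TPM in P. vachelli liver and 2.18 ± 0.199 TPM in P. fulvidraco (1.41 ± 0.15 between the parents, limma adjusted p = 8.89e-05).

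**Figure D4:**
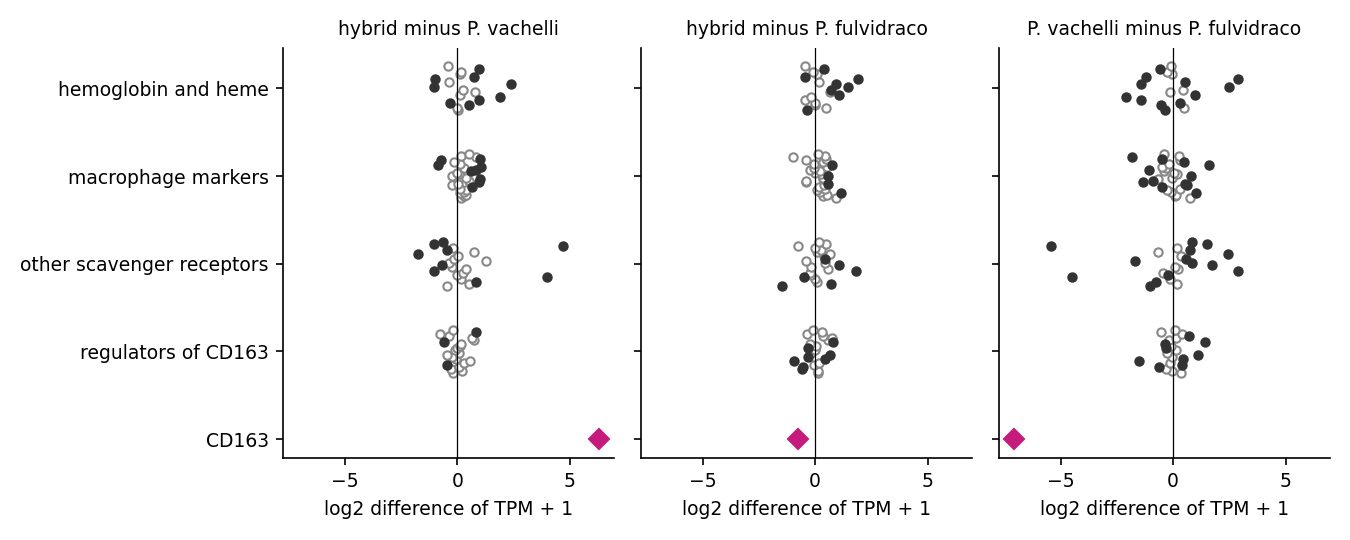
Log2 differences of TPM + 1 (horizontal axis) for the tested members of the 4 lists and for the CD163 sum (diamond), in the 3 comparisons named above the panels. Filled points are members called by limma and open points are not. CD163 lies at 6.30, -0.76 and -7.06, and the members farthest out between the parents are SSC5D (-5.44) and DMBT1 (-4.49), the SRCR proteins with a row in a CD163 cluster.

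The symbols most like CD163 over the 9 libraries, among 6054 with a mean of at least 5 TPM, were led by DMBT1 (Pearson r = 0.999). Its sum is mostly the neighbour of row 1 in hybrid liver and P. fulvidraco. In P. vachelli the sum averaged 19.6 TPM and the neighbour 7.86 TPM, and other rows of that name are not shown. DMBT1 was followed by the complement gene C4 (r = 0.997), at 176 ± 14.3 TPM in hybrid liver, 23.7 ± 0.794 TPM in P. vachelli liver and 221 ± 4.60 TPM in P. fulvidraco. CPI17, described as a regulatory subunit of protein phosphatase 1, came next (r = 0.997), at 45.2 ± 2.22 TPM in hybrid liver, 0.283 ± 0.0666 TPM in P. vachelli liver and 84.8 ± 16.8 TPM in P. fulvidraco. ZNF256 and CCDC112 completed the 5 (r = 0.996 each). The libraries of a line share species and rearing, so these values mostly follow the line: 238 symbols reached r of 0.95. Over the 6 libraries without P. vachelli, 92 symbols did, and the 5 most alike were SOCS7, AES, RND3, KPNB1 and CLEC16A (r = 0.989 to 0.994). Of these, KPNB1, an importin of nuclear transport, stood at 21.0 ± 7.02 TPM in hybrid liver, 8.83 ± 0.767 TPM in P. vachelli liver and 42.2 ± 5.85 TPM in P. fulvidraco. No symbol was among the first 5 in both sets of libraries.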

How the data were processed

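Liver poly(A) RNA was sequenced as paired ends on an Illumina HiSeq, per the labels' protocols. The authors deposited 1 TPM value for each assembled gene in each library. Cutadapt and FastQC are named without a version, per the submitters' processing notes. Row names have the form Trinity gives to assembled genes, per the file headers. Neither the quantifier nor the origin of the names is given in the sources used here. One protocol mentions an adipose type, but liver is the labelled tissue and was taken. Columns were matched by library title, and 0 stayed without a sample.

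Rows with at least 1 TPM in 3 of the 9 libraries were tested (51225), and likewise the sums of the rows of a symbol (10815). The test was limma 3.58.1 (R 4.3.3) with an intensity trend on log2(TPM + 1), in 1 fit of 3 groups leaving 6 residual degrees of freedom. It was two-sided, and p-values were adjusted by Benjamini-Hochberg over all rows or symbols, with calls at 0.05. The fit was tested on simulated data. For the linear mid-parent, the log-scale comparison lent its standard error. Named genes were every CD163 row, up to 4 members of a list with the smallest p in a comparison, any list gene to give its value, the 5 most abundant rows by description and the 5 symbols most alike. Genes whose calls held in the alternatives were preferred, and both undescribed neighbours were chosen after their values were seen, as were the limits of 100 TPM and 1%. CD163 and the lists were chosen with earlier results of these data known. Same-numbered libraries deviated from their group means with r of -0.0682 to 0.0553 over 9 pairs, so numbers were not taken as pairs. The highest Pearson r between libraries of a group was 0.981, and none was deposited again.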

Additional observations from a re-analysis of the deposited data

How the results depend on the processing

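The CD163 sum stayed above P. vachelli in every alternative (log2 difference 5.57 to 6.52) and below P. fulvidraco (-0.86 to -0.56). Settings tried were other filters, median-ratio scaling, quantile normalization, pseudocounts, no trend, only the compared groups, the replicate block, a linear mid-parent, each library left out and, chosen after seeing the data, added M130-like rows and P. fulvidraco 1 and 2 left out. Calls lost and values moved were as follows; the causes were not tested. On the linear scale the mid-parent call was lost for the sum (0.228) and row 1 (0.228). Against P. fulvidraco, row 1 was not called at a pseudocount of 0.1 (-0.76) or without a trend (-0.76). The sum with the neighbour of row 1 added was not called either (-0.68). Without P. fulvidraco 1 and 2, which leaves 1 library of that species, neither row 1 (-0.83) nor the sum (-0.82) was called. Leaving out each library gave -0.87 to -0.56 for row 1. The parents differed by -7.28 in the sum and -1.14 in row 2 at a pseudocount of 0.1, by -6.35 in the sum and -6.44 in row 1 at a pseudocount of 5, and by -6.56 and -6.24 in the sum with M130-like rows added. Leaving out each library moved them to -7.39 to -7.01 in row 1, -0.74 to -0.09 in row 2 and -7.15 to -7.01 in the sum.

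List members higher in the hybrid than in P. fulvidraco numbered 10 to 19 with each library left out, and lower members 4 to 12. In a fit of only these groups 4 were lower. Members lower in hybrid liver than in P. vachelli numbered 8 to 17 with each library left out. Without P. fulvidraco 1 and 2, which leaves 1 library of that species, fewer members were called against P. fulvidraco, and their counts are not read. Most rows by description entered the test through P. vachelli alone, so counts of their calls with P. vachelli are bound to the filter and are not read. As reported, these were 4 between the hybrid and P. vachelli and 5 between the parents, where 30.0% and 54.4% of all rows were called. A filter of 5 TPM left 1 and 1, and leaving out each library 1 to 5 and 1 to 5. Against P. fulvidraco 1 was called in a fit of only these groups, and 0 to 1 with each library left out. With the replicate number as a block, the CD163 sum differed by 6.30 from P. vachelli and by -0.76 from P. fulvidraco (limma, adjusted p = 0.0157), and its calls held. Of 96 called differences of other list genes, 47 kept their call in all of 20 alternatives and 0 were reversed. Under the block 4 lost it, and with a single library left out 8 to 22. More lost it without P. fulvidraco 1 and 2, which leaves 1 library of that species, so their number is not read. With rows of at least 10 TPM in P. fulvidraco, the hybrid held a median of 47.3% over 661 rows. TPM keep no depth, so no counting error can be given for row 2 and other rows near 0.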
